A study of Homo sapiens with 6 samples.

Results

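The genes described here encode 10 contractile and actin-filament proteins that mark myofibroblasts: ACTA2, TAGLN, CNN1, MYL9, TPM1, TPM2, ACTG2, CALD1, LMOD1 and MYLK. They were picked out by symbol, by a rule that holds no measured value, though with earlier results of these data known, and all 10 were among the 14168 genes listed by symbol in the deposited table. Polyadenylated RNA had been sequenced from BJ, a human cell line of foreskin fibroblasts, kept in RPMI medium with serum. In 3 libraries, called siAgrin here, the cells had been given an siRNA against agrin (AGRN), a heparan sulfate proteoglycan of basement membranes, and in 3 libraries, called siControl, a control siRNA. The genotype is labelled as wild type in all 6 libraries, and no agent other than the siRNAs is named for either group. What is known here of the model stops there: the siRNA sequences, the dose, the harvest time and whether replicates were separate cultures are not stated, so p-values cover the spread between these libraries, which may be technical.

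Myofibroblasts are fibroblasts that have assembled stress fibres and pull on the matrix around them, as in healing wounds and fibrosis. Their force comes from myosin sliding on actin, which starts when myosin light chain kinase phosphorylates the regulatory light chain. Tropomyosin, caldesmon and calponin lie along the actin filament and restrain or stabilise it. Many of these genes are driven by serum response factor (SRF) through a promoter element called the CArG box, and transforming growth factor beta (TGF-beta) is the best known inducer of the state.

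The CArG box was looked for in the windows from 250 bases before to 50 bases after each RefSeq transcript start (GRCh38.p14), because it is the element through which SRF reads these genes. Windows were at hand for 8 of the 10 genes, all but TAGLN and MYL9, and there were 13 of them. The box was counted only in its strict form, CC, then A or T bases alone, then GG, 10 bases in all. A variant with another base inside was not counted, so a window without a match may still hold one. The strict box was found in 2 windows, 1 of ACTG2 and 1 of MYLK, and in 1.29% of all 35116 windows of this length. Both are shown 5′ to 3′ on the strand of the gene, with the CArG boxes in capitals.

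ACTG2, chr2:73892758-73893057, plus strand: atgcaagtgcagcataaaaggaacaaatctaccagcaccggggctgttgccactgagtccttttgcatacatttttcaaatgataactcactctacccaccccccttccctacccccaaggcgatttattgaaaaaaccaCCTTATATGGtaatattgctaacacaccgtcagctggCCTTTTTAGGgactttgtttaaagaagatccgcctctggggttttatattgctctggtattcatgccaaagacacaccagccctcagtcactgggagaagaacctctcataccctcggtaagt

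MYLK, chr3:123620499-123620798, minus strand: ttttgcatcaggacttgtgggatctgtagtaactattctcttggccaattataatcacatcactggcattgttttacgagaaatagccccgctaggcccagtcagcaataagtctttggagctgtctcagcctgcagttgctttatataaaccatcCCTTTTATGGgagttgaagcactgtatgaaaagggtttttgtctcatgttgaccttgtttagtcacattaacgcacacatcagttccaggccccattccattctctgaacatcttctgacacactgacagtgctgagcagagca

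The ACTG2 window held 2 boxes, which begin 110 and 73 bases before the start. Its start lies 694 bases inside the 5′ end of the GENCODE 29 gene, in an annotated exon. The MYLK box begins 94 bases before a start that lies 263783 bases inside the gene's 5′ end, out of a gene length of 274283 bases. That internal start belongs to telokin, a short product of the MYLK gene known from smooth muscle, and the table's counts per gene do not separate telokin from the kinase. The MCAT element, CATTCC on either strand, which TEAD factors bind, was in 5 of the 13 windows, of 4 genes (ACTA2, CALD1, LMOD1 and MYLK), against 14.0% of all windows. It shares no base with a CArG box in these windows. A match of letters is a description and not a measured site.

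The siRNA lowered its target. AGRN had 290, 297 and 265 scaled CPM in siAgrin replicates 1, 2 and 3, against 744, 804 and 790 scaled CPM in siControl replicates 1, 2 and 3. Scaled CPM is the deposited unit, reads per gene divided by 1 factor per library. AGRN was thus at a log2 fold change, siAgrin over siControl, of -1.46 (SE 0.05, limma adjusted p = 3.19e-06), and the groups did not overlap. Of the markers of other cells, MYOCD, the muscle coactivator of SRF, averaged 21.0 scaled CPM in siAgrin and 16.6 in siControl libraries. It was not called (limma adjusted p = 0.131), nor was the smooth muscle marker SYNM (-0.32, 0.0516). The smooth muscle genes MYH11 and DES were not analysed here. The endothelial cadherin CDH5 was at 0 in every library, and of 6 epithelial markers EPCAM, KRT5, KRT14 and CDH1 averaged 0.673 or less in either group. The keratin KRT18 averaged 159 in siAgrin and 158 in siControl libraries, and KRT8 averaged 49.7 in siAgrin and 57.4 in siControl libraries and was called lower (limma adjusted p = 0.0102; 0.0509 without siControl replicate 1). The summed level of 10 fibroblast markers, of which 4 were called lower and 0 higher, ran from 49197 to 51585 in siAgrin and from 51570 to 54268 in siControl libraries. That of 6 pericyte markers ran from 375 to 414 in siAgrin and from 313 to 332 in siControl libraries. Most of it was CSPG4, which averaged 281 in siAgrin and 194 in siControl libraries. On the log2 scale CSPG4 (0.53), ABCC9 (0.35) and KCNJ8 (0.30) were called higher, and RGS5 (-0.49) and NOTCH3 (-0.46) lower. The summed level of 6 smooth muscle markers ran from 158 to 188 in siAgrin and from 142 to 161 in siControl libraries; 3 of the 6, CNN1, LMOD1 and ACTG2, are themselves among the 10 genes, so this sum is no separate measure. That of the 3 immune markers tested, nearly all of it the lysosomal gene CD68, ran from 263 to 271 in siAgrin and from 126 to 143 in siControl libraries. All 3 were called higher, with CD14 at 0.59 and CD74 at 0.72 on the log2 scale, both averaging 2.53 scaled CPM or less in either group. The part of these markers in the results below was not tested, and in bulk RNA fewer cells of a type and less RNA per cell cannot be told apart.

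The summed level of the contractile set differed by less than the spread between libraries. Its 10 genes together took 0.521% ± 0.0386 of the listed signal in siAgrin libraries and 0.519% ± 0.0170 in siControl libraries (SD, n = 3 each). ACTA2 (smooth muscle alpha-actin) and TAGLN (transgelin), the most used myofibroblast markers, did not pass the test, nor did CNN1, TPM1, CALD1, LMOD1 or MYLK. ACTG2, MYL9 and TPM2 rose, by 30.6%, 15.8% and 10.4%. TPM2 did so at the threshold (limma adjusted p = 0.0483) and lost its call in 11 of 19 alternative fits. A gene was called where limma's two-sided test over all 13206 tested genes gave an adjusted p under 0.05; all 10 members passed the filter on low values.

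In all, 3 of 10 members were called higher, where 15.2% of all tested genes were called higher, and 0 of 10 were called lower, where 13.5% of all tested genes were called lower. At an unadjusted p under 0.05 the same 3 members were higher and 0 lower, and DESeq2 and edgeR also called 0 members lower. The median log2 fold change of the members was 0.08, against -0.00012 over all tested genes, and the median of its absolute size was 0.08 against 0.11. The libraries of the 2 groups did not overlap for the same 3 members, where 45.2% of all tested genes had no overlap. Over all tested genes 2005 were higher and 1783 lower; leaving out siControl replicate 1 gave 1124 and 947, siControl replicate 2 gave 1257 and 1067, and siAgrin replicate 3 gave 1259 and 1120.

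**Figure D1:**
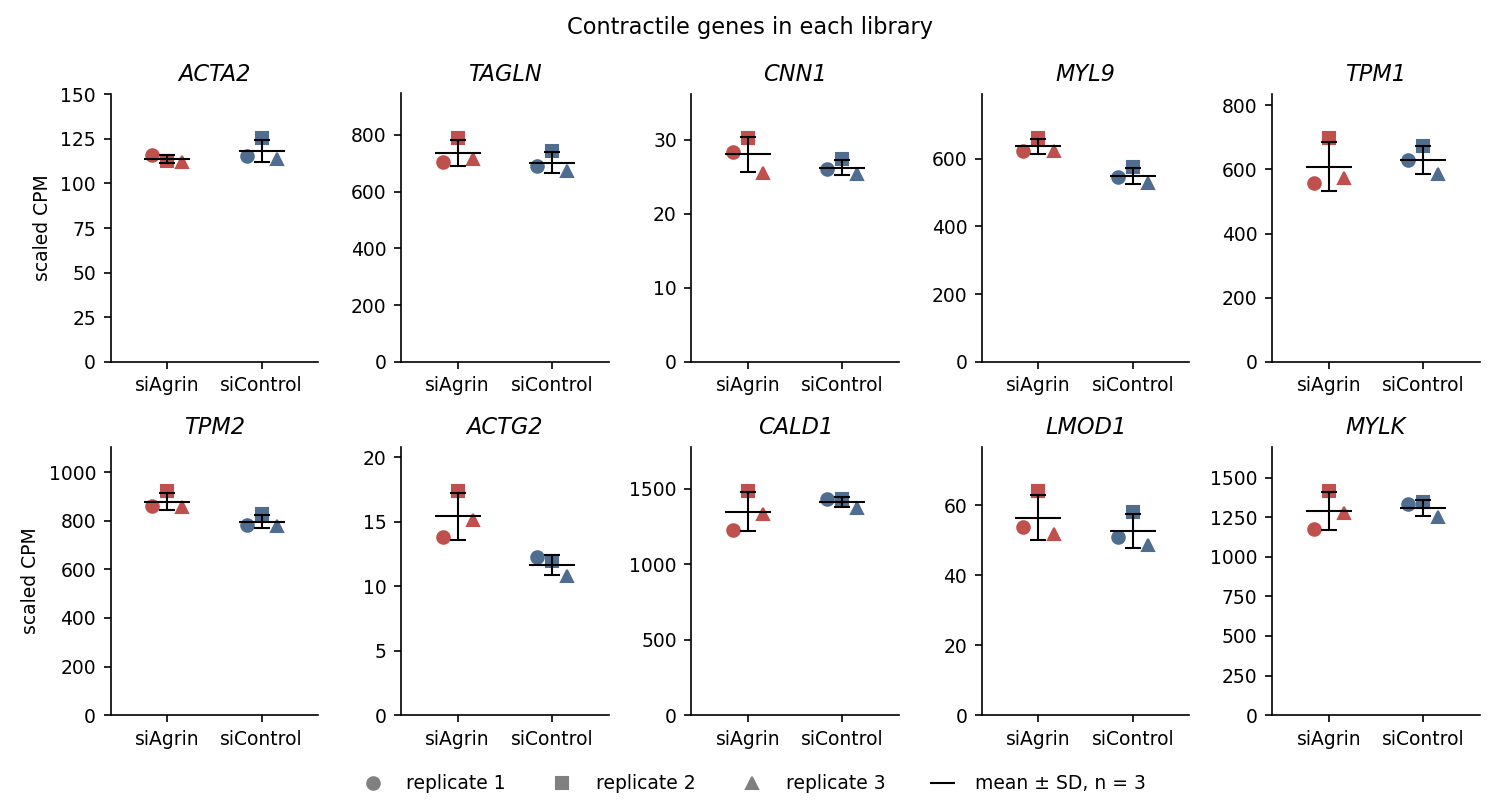
Level of each contractile gene in scaled CPM (vertical axes from 0), with siAgrin libraries left of siControl libraries, 1 point per library and the mean ± SD (n = 3) as bars. The groups are apart for MYL9, TPM2 and ACTG2 and overlap for the other 7 genes, and replicate 2 is the highest point of its group in most panels.

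The actins came out apart from each other. ACTA2 (ENSG00000107796.13), chromosome 10 positions 88935074 to 88991339 on the minus strand of GRCh38, encodes the actin of vascular smooth muscle that is built into myofibroblast stress fibres. It had 116, 113 and 112 scaled CPM in siAgrin replicates 1, 2 and 3, against 115, 125 and 114 scaled CPM in siControl replicates 1, 2 and 3. siControl replicate 2 was the highest, and the groups overlapped. Between groups the log2 fold change was -0.05 (SE 0.05, limma adjusted p = 0.404), with a 95% interval from -0.16 to 0.05, that is from 10.2% lower to 3.36% higher. ACTA2 rested on 4569 to 4942 reads per library, and the interval covers the spread between libraries.

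ACTG2 (ENSG00000163017.13), chromosome 2 positions 73892314 to 73919865 on the plus strand, encodes the gamma-actin of visceral smooth muscle. It had 13.8, 17.4 and 15.1 scaled CPM in siAgrin replicates 1, 2 and 3, against 12.3, 11.9 and 10.8 scaled CPM in siControl replicates 1, 2 and 3. Every siAgrin library lay above every siControl library, with siAgrin replicate 2 highest. The means were 15.4 ± 1.80 in siAgrin and 11.7 ± 0.774 in siControl libraries (SD, n = 3 each), a log2 fold change of 0.38 (SE 0.09, limma adjusted p = 0.0106), with a 95% interval from 0.19 to 0.58. It is the lowest of the members, at 444 to 746 reads per library, and its coding sequence is nearly the same as that of other actins, so reads from them could be split between genes. ACTB, the cytoplasmic beta-actin, was at 4130 ± 295 in siAgrin and 3549 ± 114 in siControl libraries, and its part in the ACTG2 value was not tested. ACTG1, cytoplasmic gamma-actin, was at 0.05 on the log2 scale (limma adjusted p = 0.648).

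ACTA2 shares its locus with other genes on the opposite strand. Of its annotated exon bases, 380 (12.8%) also lie in exons of FAS, the death receptor, and 516 (17.3%) in those of the antisense transcript ACTA2-AS1, which was not analysed here. FAS averaged 73.6 scaled CPM in siAgrin and 50.4 in siControl libraries and was called higher (0.54, limma adjusted p = 0.000266). STAMBPL1, a deubiquitinase gene that overlaps ACTA2 without a shared exon base, was called higher too (0.24, limma adjusted p = 0.00535). TAGLN shares 446 exon bases (11.4%) with PCSK7, a proprotein convertase gene on the other strand, also called higher (0.32, limma adjusted p = 0.00152). TPM1 shares 2070 exon bases (16.1%) with TPM1-AS, and LMOD1 536 (13.5%) with AL513217.1, antisense genes that were not analysed here. How the counting treated strand is not stated, so reads from such pairs may not have been told apart.

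The light chain rose and its kinase did not pass. MYL9 (ENSG00000101335.9), chromosome 20 positions 36541484 to 36551447 on the plus strand, encodes the regulatory light chain whose phosphorylation switches myosin on. It had 623, 660 and 624 scaled CPM in siAgrin replicates 1, 2 and 3, against 544, 575 and 528 scaled CPM in siControl replicates 1, 2 and 3. All siAgrin libraries were above all siControl libraries. Its log2 fold change was 0.21 (SE 0.05, limma adjusted p = 0.00857), with a 95% interval from 0.11 to 0.31. It is close in sequence to MYL12A and MYL12B, the nonmuscle light chains, so how shared reads were assigned could touch it. MYL12A was called higher (0.14, limma adjusted p = 0.0194) and MYL12B was not called (0.08, 0.148). Their part in the MYL9 value was not tested.

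MYLK (ENSG00000065534.18), chromosome 3 positions 123610049 to 123884331 on the minus strand, encodes myosin light chain kinase. It had 1173, 1412 and 1278 scaled CPM in siAgrin replicates 1, 2 and 3, against 1334, 1343 and 1249 scaled CPM in siControl replicates 1, 2 and 3. The siAgrin libraries lay on both sides of the siControl libraries. Between groups the log2 fold change was -0.03 (SE 0.07, limma adjusted p = 0.8), with a 95% interval from -0.18 to 0.13. Without siAgrin replicate 1 the log2 fold change was 0.039 (adjusted p = 0.656), and after quantile normalization it was -0.18 (adjusted p = 0.0543). The antisense gene MYLK-AS1 was under the filter, at 0.520 scaled CPM in siAgrin and 0.448 in siControl libraries.

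The tropomyosins, rod-shaped proteins that wind along actin and gate myosin's access to it, differed in outcome. TPM2 (ENSG00000198467.14), chromosome 9 positions 35681992 to 35690121 on the minus strand, had 860, 920 and 855 scaled CPM in siAgrin replicates 1, 2 and 3, against 784, 826 and 778 scaled CPM in siControl replicates 1, 2 and 3. The groups did not overlap. Its log2 fold change was 0.14 (SE 0.05, limma adjusted p = 0.0483), with a 95% interval from 0.04 to 0.25. This call sat at the threshold. It was lost without siAgrin replicate 2 (adjusted p = 0.068), siAgrin replicate 3 (0.088), siControl replicate 1 (0.174), siControl replicate 2 (0.0694) or siControl replicate 3 (0.154), and the log2 fold change then lay between 0.11 and 0.17.

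TPM1 (ENSG00000140416.20), chromosome 15 positions 63042632 to 63071915 on the plus strand, had 557, 697 and 573 scaled CPM in siAgrin replicates 1, 2 and 3, against 629, 674 and 585 scaled CPM in siControl replicates 1, 2 and 3. Among siAgrin libraries replicate 2 was above, and replicates 1 and 3 below, every siControl library. Between groups the log2 fold change was -0.05 (SE 0.08, limma adjusted p = 0.673), with a 95% interval from -0.24 to 0.14. Without siAgrin replicate 2 TPM1 was called lower (log2 fold change -0.15, limma adjusted p = 0.0426). With 19 annotated protein-coding transcripts, TPM1 makes muscle and nonmuscle isoforms, which counts per gene pool.

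None of the 4 genes for other actin-binding proteins was called in the limma fit of the deposited values with all 6 libraries. CALD1 (ENSG00000122786.19), chromosome 7 positions 134744252 to 134970728 on the plus strand, encodes caldesmon, which binds actin, myosin and calmodulin. It had 1226, 1483 and 1335 scaled CPM in siAgrin replicates 1, 2 and 3, against 1430, 1432 and 1377 scaled CPM in siControl replicates 1, 2 and 3. The siAgrin libraries again lay on both sides. Its log2 fold change was -0.07 (SE 0.07, limma adjusted p = 0.455), with a 95% interval from -0.22 to 0.08; without siAgrin replicate 2 it was -0.14 and called lower (adjusted p = 0.0435), and after quantile normalization -0.21 and called lower (adjusted p = 0.0208).

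TAGLN (ENSG00000149591.16), chromosome 11 positions 117199321 to 117204782 on the plus strand, encodes transgelin (SM22-alpha), which bundles actin filaments. It had 704, 788 and 717 scaled CPM in siAgrin replicates 1, 2 and 3, against 689, 744 and 675 scaled CPM in siControl replicates 1, 2 and 3. The ranges overlapped, with replicate 2 the highest of each group. Between groups the log2 fold change was 0.07 (SE 0.06, limma adjusted p = 0.411), with a 95% interval from -0.06 to 0.19.

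CNN1 (ENSG00000130176.7), chromosome 19 positions 11538717 to 11550323 on the plus strand, encodes calponin, an actin-binding protein that restrains myosin. It had 28.4, 30.2 and 25.6 scaled CPM in siAgrin replicates 1, 2 and 3, against 26.0, 27.4 and 25.4 scaled CPM in siControl replicates 1, 2 and 3. In siAgrin, replicates 1 and 2 were above every siControl library and replicate 3 was within their range. Its log2 fold change was 0.09 (SE 0.07, limma adjusted p = 0.325), with a 95% interval from -0.06 to 0.24.

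LMOD1 (ENSG00000163431.12), chromosome 1 positions 201896452 to 201946588 on the minus strand, encodes leiomodin, which nucleates actin filaments in smooth muscle. It had 53.8, 63.9 and 51.7 scaled CPM in siAgrin replicates 1, 2 and 3, against 51.0, 58.0 and 48.6 scaled CPM in siControl replicates 1, 2 and 3. One siAgrin library, replicate 2, was above every siControl library, and the groups overlapped. Between groups the log2 fold change was 0.10 (SE 0.09, limma adjusted p = 0.412), with a 95% interval from -0.09 to 0.30.

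**Figure D2:**
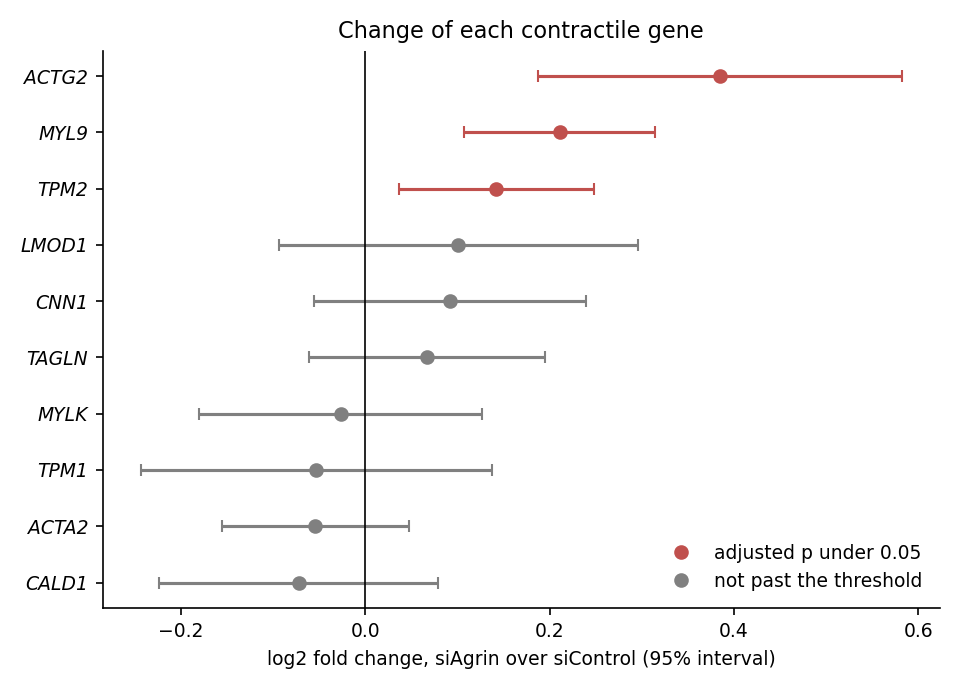
Log2 fold change of each contractile gene, siAgrin over siControl, from limma on log2(scaled CPM + 0.5), with its 95% interval (3 libraries per group). The intervals of ACTG2, MYL9 and TPM2 lie above 0, and those of the other 7 genes include 0 and stay between -0.24 and 0.30.

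For the 7 members that were not called, the intervals cover the spread between these libraries in the main limma fit only. They reached down to 15.5% lower, for TPM1, and up to 22.7% higher, for LMOD1. These values do not bound a difference that went unseen, because the estimates moved with the processing. The log2 fold change of CALD1 was -0.07 in the main fit and -0.21 after quantile normalization, where it was called lower. With 3 libraries a group, the smallest p that the exact two-sided permutation test allows is 0.1, and MYL9, TPM2 and ACTG2 each gave it. Every gene whose groups do not overlap gives this p, as 45.2% of all tested genes did, so it adds nothing to the lack of overlap.

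Within each group the same library was often the highest. Replicate 2 held the highest value of its group for 9 of 10 members among siAgrin libraries and for 9 of 10 among siControl libraries, where 38.6% and 34.8% of all tested genes had their highest value in these libraries. The exceptions were ACTA2 in siAgrin, where replicate 1 was highest, and ACTG2 in siControl, also with replicate 1 highest. siControl replicate 3 held the lowest value of its group for all 10 members, against 37.7% of all tested genes. Relative to the siControl mean, the median member stood on the log2 scale at 0.02, 0.18 and -0.03 in siAgrin replicates 1, 2 and 3, and at -0.01, 0.06 and -0.06 in siControl replicates 1, 2 and 3. The median of all tested genes lay within 0.01 of 0 in each library.

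Most members, all but ACTA2 and MYL9, had a larger SD among siAgrin than among siControl libraries. The median SD of their log2 values was 0.13 among siAgrin and 0.07 among siControl libraries, and over all tested genes it was 0.08 among siAgrin and 0.05 among siControl libraries. Among siAgrin libraries the highest value was 1.26 times the lowest for ACTG2, 1.25 times for TPM1 and 1.21 times for CALD1, but 1.03 times for ACTA2. On the second principal component of all tested genes, with 16.5% of the variance, siAgrin replicate 2 lay at -12.7 and siAgrin replicate 1 at 10.8. The share of this whole-library difference in the members' spread was not tested.

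**Figure D3:**
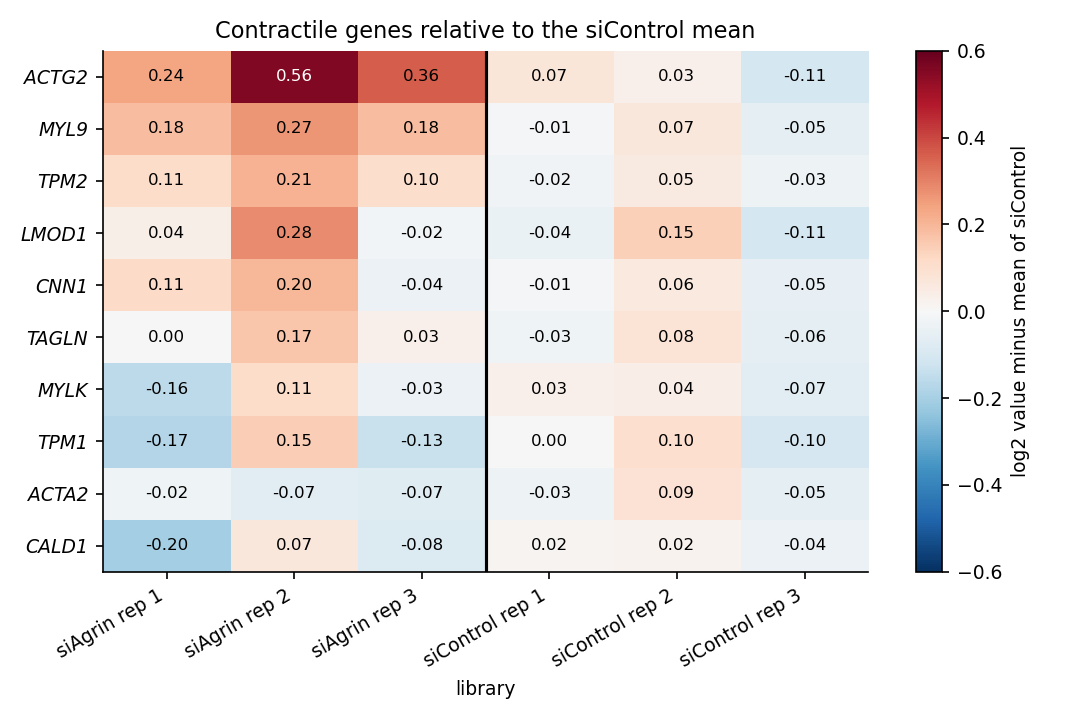
Log2 value of each contractile gene (rows) in each library (columns, siAgrin left of siControl) minus the mean of the 3 siControl libraries, printed in each cell and shown as colour from -0.6 to 0.6. ACTG2, MYL9, TPM2 and, by a small margin, TAGLN are above the siControl mean in all 3 siAgrin libraries, and siAgrin replicate 2 is above it for every gene except ACTA2.

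Over the 6 libraries 41 of the 45 pairs of members had a positive Pearson r, with a median of 0.52, a description only, since these libraries share 2 conditions and replicate-wide shifts. MYL9 went with TPM2 (r = 0.98), TAGLN with LMOD1 (0.97) and CALD1 with MYLK (0.95). For ACTA2 r was -0.43 with ACTG2 and -0.24 with MYL9. Among tested genes outside the set, those most like the members' mean were PHLDB3, HDAC9, PITPNB, CFL2 and FBXO22 (r from 0.98 to 0.99 over 6 libraries), out of 77 genes at 0.9 or more. Those most like ACTA2 were NPM1P6, PLD2, CEBPD, ZFP62 and GABARAPL1 (r from 0.96 to 0.99). None of these 10 was called.

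Levels were compared between members per kilobase of all exons annotated in GENCODE 29. TPM2 was highest, at 270 ± 11.2 scaled CPM per kb in siAgrin and 245 ± 8.05 in siControl libraries (SD, n = 3 each), followed by MYL9, TAGLN, CALD1, MYLK, TPM1, ACTA2, LMOD1 and CNN1. ACTG2 was lowest, at 4.05 ± 0.472 per kb in siAgrin and 3.06 ± 0.203 in siControl libraries. ACTA2 stood at 38.2 ± 0.684 per kb in siAgrin and 39.7 ± 2.12 in siControl libraries. The order was the same in both groups, with MYLK and TPM1 overlapping in siAgrin, and MYL9 and TAGLN overlapping in siControl libraries. With the longest protein-coding transcript as the length, TAGLN and CALD1, which overlapped, stood above MYL9. TPM1 then stood above MYLK, with overlap among siAgrin but not siControl libraries, and CNN1 above LMOD1, with overlap in both groups.

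Around the set, other contractile and actin-binding genes moved both ways. Of 30 tested, 7 rose and 4 fell, so that 36.7% were called, near the 28.7% of all tested genes (15.2% higher and 13.5% lower), with a median log2 fold change of 0.05 against -0.00012 over all genes. SMTN, smoothelin, was at 0.27 (limma adjusted p = 0.0023), TPM3, another tropomyosin, at 0.24 (0.00897) and MYL6, the essential light chain, at 0.25 (0.00413; 0.0635 and 0.13 after quantile normalization). ACTB was at 0.22 (limma adjusted p = 0.038) and lost its call without siAgrin replicate 2 or 3 or any siControl library, with adjusted p up to 0.143. It also lost it with no filter (0.0705) and after rescaling (0.0568), and quantile normalization turned its log2 fold change to -0.039 (adjusted p = 0.637). SYNPO2, an actin-bundling protein of smooth muscle, fell to 57.5 ± 7.65 scaled CPM in siAgrin, against 104.6 ± 9.50 in siControl libraries (SD, n = 3 each; -0.86, limma adjusted p = 0.000226). MYH10, a heavy chain of nonmuscle myosin, fell to 138 ± 8.49 in siAgrin, against 203 ± 1.96 in siControl libraries (-0.56), and CNN3, the acidic calponin, fell too (-0.37). The count of higher genes was 3 without siAgrin replicate 3 and without each siControl library in turn, and 4 after quantile normalization or rescaling.

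A list of 29 genes held SRF, its cofactors, some of its targets and factors that act beside it. Of these 29, 2 rose, where 15.2% of all tested genes were called higher, and 8 fell, where 13.5% of all tested genes were called lower. Both directions together made 34.5%, against 28.7% of all tested genes, with a median of -0.05. SRF itself was at -0.0048 on the log2 scale and VCL, vinculin, an SRF target of focal adhesions, at -0.05 (limma adjusted p = 0.615). Among its cofactors MRTFA (-0.14, limma adjusted p = 0.0357) and ELK4 (-0.26, 0.00123) were called lower. MRTFB (-0.17), MYOCD (0.31), ELK1 (0.02) and ELK3 (0.04) were not called. KLF4, which represses smooth muscle genes, rose (0.67, limma adjusted p = 5.27e-05). CTGF, listed under its older symbol, fell to 41.3 ± 4.54 scaled CPM in siAgrin, against 76.2 ± 10.1 in siControl libraries (-0.87). CYR61, also under an older symbol, was at 0.02 (limma adjusted p = 0.863). FHL1, a LIM-domain protein of muscle, fell to 400.0 ± 46.4 in siAgrin, against 625 ± 66.9 in siControl libraries (-0.64), and NOTCH3 (-0.46) and KLF5 (-0.42) fell as well. The higher count was 1 without siAgrin replicate 3, siControl replicate 1 or siControl replicate 3.

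TGF-beta ligands, receptors and signal carriers were called in 15 of 23 cases, 7 higher and 8 lower, that is 65.2%, against 28.7% of all tested genes, with a median of -0.02. The ligand TGFB2 fell to 14.4 ± 0.851 scaled CPM in siAgrin, against 32.3 ± 1.99 in siControl libraries (-1.14, limma adjusted p = 7.12e-06), and the receptor TGFBR1 to 57.1 ± 3.71 in siAgrin, against 89.6 ± 4.07 in siControl libraries (-0.65). The other receptor, TGFBR2, rose (0.29), with LTBP1, which tethers latent TGF-beta to the matrix (0.46), and the SMAD ubiquitin ligase SMURF2 (0.40); SKI, a repressor of SMADs, fell (-0.35). The higher count was 4 without siAgrin replicate 3, siControl replicate 2 or siControl replicate 3, and the lower count 4 without siControl replicate 1 and 5 without siControl replicate 2.

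Of 21 matrix and surface genes of myofibroblasts 3 rose and 8 fell, so that 52.4% were called, against 28.7% of all tested genes, with a median of -0.04. Tenascin C, TNC, had the largest rise of these 4 lists (1.01, limma adjusted p = 0.000394). CDH2, N-cadherin (-0.51), the collagen crosslinker LOX (-0.45), the surface protease FAP (-0.45) and the receptor PDGFRB (-0.36) fell. The higher count was 1 without siControl replicate 1, 2 or 3, and the lower count 5 without siControl replicate 1. Log2 fold changes of the 10 members ran from -0.07 to 0.38, a range over fewer genes than in any of these lists.

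**Figure D4:**
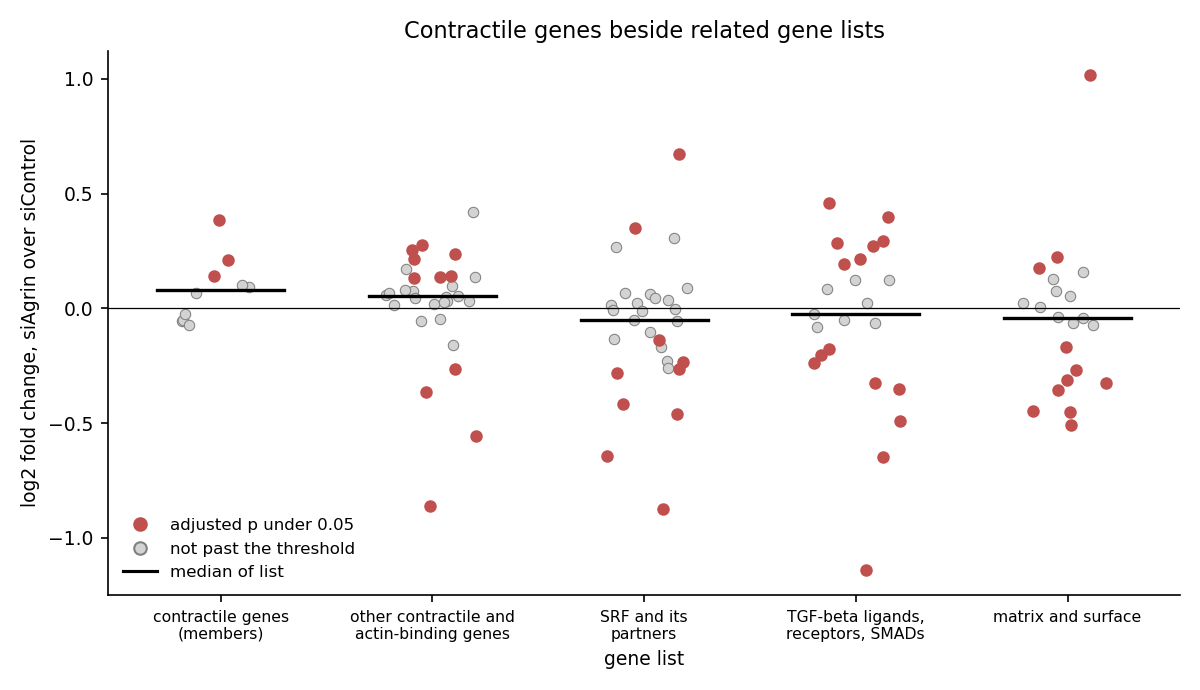
Log2 fold change, siAgrin over siControl, of each tested gene in the contractile set and in 4 related lists (columns), with genes at an adjusted p under 0.05 in red and the median of each list as a bar. The 10 contractile genes run from -0.07 to 0.38, and the related lists, of 21 to 30 tested genes each, reach from -1.14 (TGFB2) to 1.01 (TNC). A range widens with the number of genes.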

How the data were processed

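The authors deposited 1 table with 1 column per library, called CPM in its name. The tools named, per the submitters' processing notes, are edgeR, HTSeq, SAMtools and STAR 2.6.1d, with the build hg38. Annotation, strand setting, gene filter and scaling factors are not stated. The deposited columns hold a normalized signal that sums to 1073188 to 1096534, so the unit is called scaled CPM. All values (100%) were whole multiples of 1 step per column (tolerance 0.01), which gave 42736368 to 48246613 reads per library. At that depth 3 reads equal 0.0681 to 0.0761 scaled CPM.

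Genes at 1 or more in at least 3 libraries (13206) were tested with limma 3.58.1 (R 4.3.3) on log2(value + 0.5), using a variance trend, no covariate and Benjamini-Hochberg adjustment over all of them. Folds are on that scale, which understates low genes. The design had assumed CPM; the test was kept. Replicate pairs differed by more than sampling noise: chi-square over its degrees of freedom was 10.2 to 24.8 among siAgrin and 4.41 to 5.85 among siControl libraries. The members and lists were chosen with earlier results of these data known. Of the lists drawn up, 1 is not reported here. Named genes were the members, AGRN, up to 4 called genes per list and direction and the 2 most abundant, neighbours within 5 kb, and 5 genes per pattern by Pearson r. Of these, list genes that lost their call in alternatives are mostly given by count. The markers printed were chosen after their values were seen. SRF, its cofactors, CYR61, MYL12A and MYL12B were added outside this rule, also with their values known, and their calls in alternatives are not given. Symbols were matched to GENCODE 29 on GRCh38 (14144 of 14168). The recovered reads were also fitted with DESeq2 1.42.0 and with edgeR 4.0.16. Figures used matplotlib 3.10.9.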

Additional observations from a re-analysis of the deposited data

How the results depend on the processing

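Over 19 alternatives ACTG2 and MYL9 kept their call, with adjusted p up to 0.049 and 0.0483 and log2 fold changes from 0.30 to 0.46 and from 0.18 to 0.24. TPM2 kept its direction but lost its call in 11 of 19: with edgeR (0.13, adjusted p = 0.0614), median-of-ratios scaling (0.14, 0.0523), no filter (0.14, 0.0582), no trend (0.14, 0.0776), quantile normalization (0.11, 0.107), rescaling without mitochondrial and top 10 genes (0.11, 0.0922), and in 5 leave-one-out fits (0.11 to 0.17 over all 6). The count of members higher was 2 or 3 throughout. The count lower was 1 after quantile normalization (CALD1, -0.21) and 2 without siAgrin replicate 2, where TPM1 (-0.15; leave-one-out range -0.15 to 0.0078) and CALD1 (-0.14; range -0.14 to -0.0059) were called; leave-one-out counts of members lower ran from 0 to 2. ACTA2, TAGLN, CNN1, LMOD1 and MYLK were called in none of the 19. ACTB turned to -0.039 under quantile normalization. The cause of these differences was not tested.

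Array weights gave 3040 genes higher and 2942 lower, and leave-one-out fits 1124 to 2551 higher and 947 to 2588 lower. The other contractile list had 4 higher genes after quantile normalization and 4 after rescaling, with 3 to 8 in leave-one-out fits (3 to 6 lower). The SRF list had 1 higher gene with DESeq2, edgeR, a mean of at least 5 or rescaling, 5 with array weights, and 1 to 2 in leave-one-out fits. Leave-one-out counts higher ran from 4 to 8 for TGF-beta (4 to 8 lower) and 1 to 4 for matrix genes (5 to 8 lower). Rescaling moved the median of all genes by less than 0.03.

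With the replicate number as a block 3 members were higher and 0 lower (ACTG2 adjusted p = 0.00673, MYL9 0.00673, TPM2 0.0428), and no member's call changed. The correlation of deviations was -0.04, 0.17 and 0.20 for same-numbered libraries 1, 2 and 3, and ran from -0.33 to 0.15 for unlike-numbered ones. With so few libraries these values do not settle whether the numbers pair the libraries. The lowest member, ACTG2, had 444 reads or more per library; precision is limited by the spread between 3 libraries a group.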
